A study of Homo sapiens with 4 samples.

Results

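The genes described here are the 3 paralogs of the insulin-like growth factor 2 mRNA-binding protein family, IGF2BP1, IGF2BP2 and IGF2BP3, and 7 RNA-binding proteins found with them in mRNA-protein granules, HNRNPU, SYNCRIP, YBX1, DHX9, ELAVL1, PABPC1 and MATR3. They were taken by symbol from the tables of 4 RNA-seq libraries. The 10 symbols matched 11 of the 58302 Ensembl entries listed, because MATR3 carries 2. The RNA, selected for poly(A), came from T24 cells, a long-established line from a human bladder carcinoma. Of the libraries, 2 are labelled control and 2 are labelled IGF2BP3 knockout, a stable T24 line made with CRISPR/Cas9. What the control cells carried, and whether the knockout libraries come from 1 clone or from several, is not given in the sources used here. The same holds for separate cultures, so the p-values measure only the spread between these samples, which may be technical. In the main limma fit that spread was pooled over genes of like level, with no weight on a gene's own.

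IGF2BP proteins bind messenger RNAs, many of them at N6-methyladenosine (m6A), through a row of RNA recognition and KH domains, and protect them from decay. They are oncofetal proteins, abundant in embryonic tissue and made again in many tumours. HNRNPU, SYNCRIP, YBX1 and DHX9 form a complex with IGF2BP1 on a stretch of the MYC coding sequence that shields the message. ELAVL1, PABPC1 and MATR3 have been named as cofactors of the family in stabilising m6A-marked messages.

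The paralogs are alike in protein but separable in RNA. Aligned over their coding sequences (the transcript with the longest coding sequence of each gene in GENCODE 29), IGF2BP1 and IGF2BP3 were identical at 70.5% of 1714 bases, IGF2BP2 and IGF2BP3 at 70.7% of 1711, and IGF2BP1 and IGF2BP2 at 70.1% of 1713. All 3 shared the base at 982 of the 1740 positions of the IGF2BP3 coding sequence. Of 353 windows of 90 coding bases aligned without a gap in all 3, the most alike, by bases identical in all 3, is shown. It covers bases 589 to 678 of IGF2BP3 (hg38 chromosome 7, minus strand, 23351310 to 23351399), 589 to 678 of IGF2BP1 (chromosome 17, plus strand, 49038355 to 49038444) and 601 to 690 of IGF2BP2 (chromosome 3, minus strand, 185689360 to 185689449), each within 1 exon. Capitals mark, in IGF2BP3, bases that are not the same in all 3, and in the other two, bases that differ from IGF2BP3.
IGF2BP3: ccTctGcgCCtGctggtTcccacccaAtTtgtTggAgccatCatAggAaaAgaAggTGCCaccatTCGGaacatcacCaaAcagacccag
IGF2BP1: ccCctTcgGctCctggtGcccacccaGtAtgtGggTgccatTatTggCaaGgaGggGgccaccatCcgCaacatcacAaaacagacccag
IGF2BP2: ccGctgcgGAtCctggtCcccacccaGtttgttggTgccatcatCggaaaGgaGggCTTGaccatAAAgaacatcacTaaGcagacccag
Even here 18 bases of IGF2BP1 and 19 of IGF2BP2 differed from IGF2BP3. The least alike window follows with the same marking, as the other end of the range. It covers bases 688 to 777 of IGF2BP3 (chromosome 7, 23347641 to 23347730), 688 to 777 of IGF2BP1 (chromosome 17, 49039961 to 49040050) and 700 to 789 of IGF2BP2 (chromosome 3, 185687098 to 185687187).
IGF2BP3: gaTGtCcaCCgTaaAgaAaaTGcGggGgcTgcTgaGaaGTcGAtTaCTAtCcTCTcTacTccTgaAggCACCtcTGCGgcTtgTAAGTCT
IGF2BP1: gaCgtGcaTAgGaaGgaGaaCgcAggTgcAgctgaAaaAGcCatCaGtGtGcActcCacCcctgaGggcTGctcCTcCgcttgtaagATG
IGF2BP2: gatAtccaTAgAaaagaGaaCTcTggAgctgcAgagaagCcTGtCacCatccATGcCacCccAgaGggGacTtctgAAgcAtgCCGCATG
Here 31 bases of IGF2BP1 and 34 of IGF2BP2 differed from IGF2BP3, and 43 of 90 were shared by all 3. The longest run shared, at any position of either coding sequence, was 22 bases between IGF2BP1 and IGF2BP2 and 21 between IGF2BP1 and IGF2BP3. Both lie outside the windows shown, from bases 109 and 121 of IGF2BP1. Between IGF2BP2 and IGF2BP3 it was 14 bases, from bases 634 and 1252, which are not aligned with each other. No run of 50 bases was shared between the transcripts of any 2 paralogs. The length of the reads is not given in the sources used here.

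Values are FPKM, read counts scaled to the length of the transcript and to the depth of the library. Reads recovered from them put the libraries at 811823 to 2162179 gene-assigned reads, so 1 read of IGF2BP3 was worth 0.109 to 0.290 FPKM. Of the 11463 genes tested (mean FPKM of at least 1), 28.3% were listed at 0 in control 1 and 34.7% in knockout 1, against 12.3% in control 2 and 13.9% in knockout 2. Among 15 urothelial and epithelial markers, 10 were at 0 in every library, including EPCAM, CDH1 and the uroplakins UPK1A, UPK1B, UPK2 and UPK3A, while KRT8 and KRT18 made up most of the summed level. That sum was 440 and 581 FPKM in control libraries against 1545 and 1163 in knockout libraries, and 4 markers of the mesenchymal state of carcinoma cells, mostly VIM, summed to 183 and 186 against 325 and 384. The part of these differences in the results below was not tested. All 5 leukocyte markers were at 0, as were 3 of 4 endothelial and 3 of 5 fibroblast markers. In the limma comparison of knockout with control, 10 of 11463 genes (0.0872%) passed an adjusted p of 0.05, 7 of them higher (0.0611%) and 3 lower (0.0262%), and 0 of the 11 entries was among them.

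IGF2BP3, the targeted gene, was present in both controls and at or near 0 in both knockouts. It lies on chromosome 7 from 23310209 to 23470467. Control 1 held 2.94 FPKM (27 reads), control 2 held 21.5 (171 reads), knockout 1 was listed at 0 and knockout 2 held 0.190 (1 read). Both knockouts thus lay below both controls, while the controls themselves differed 6.40-fold on the log2(FPKM + 0.5) scale. The 0 in knockout 1 allows up to 3 reads, or 0.870 FPKM. Scaled for depth, the knockout reads came to 0.993% of the control reads (exact 95% interval 0.0250 to 5.59%, counting error only). In bulk RNA, fewer cells with a transcript and less of it per cell cannot be told apart. The fitted log2 fold change was -3.89 ± 2.83 (SE, n = 2 and 2), with a limma adjusted p of 0.955. It was -5.23 without control 1 and -2.55 without control 2, and -5.57 and -3.11 with a pseudocount of 0.1 and of 1. MALSU1 on the opposite strand shares 1521 of the 8511 exon bases of IGF2BP3, and had 24.9 and 0.702 FPKM in control libraries against 0 and 1.06 in knockout libraries. The strand setting of the counting is not given in the sources used here, and the part of this overlap was not tested.

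IGF2BP1, the member of the family best studied as a stabiliser of MYC mRNA, was measured at like levels in control libraries and slightly higher in knockout libraries. It lies on chromosome 17 from 48997412 to 49055650. The controls had 12.6 and 12.3 FPKM (226 and 191 reads) and the knockouts 19.2 and 14.03 (129 and 144 reads). The groups did not overlap, but knockout 2 stood only a little above control 1. On the log2 scale the fold change was 0.38, with a 95% interval from -2.67 to 3.43 (limma adjusted p = 0.992), and it was 0.16 without knockout 1 and 0.60 without knockout 2. The knockout-to-control ratio of mean FPKM was 1.33.

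IGF2BP2, the paralog that is also widely expressed in adult tissue, had the highest FPKM of the 3 in every library. It lies on chromosome 3 from 185643739 to 185825056. Control 1 had 43.4 FPKM and control 2 had 99.3, against 37.4 in knockout 1 and 86.8 in knockout 2. The libraries numbered 1 were low and those numbered 2 high in both groups, so that the groups overlapped almost fully. The log2 fold change of -0.20 (95% interval -1.93 to 1.53, limma adjusted p = 0.992) was smaller than the 1.18 and 1.20 by which the libraries of a group differed on the same scale, and its sign turned to 0.39 without control 2 and to 0.40 without knockout 1.

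The libraries stood in the same order by the summed level of the family as by IGF2BP2. Summed over the paralogs, the level was 58.96 FPKM in control 1, 133 in control 2, 56.6 in knockout 1 and 101 in knockout 2. IGF2BP3 gave 4.98% and 16.2% of it in control libraries and 0 and 0.188% in knockout libraries. IGF2BP2 gave 73.6% and 74.6% against 66.1% and 85.9%, and IGF2BP1 gave 21.4% and 9.27% against 33.9% and 13.9%. The ratio of IGF2BP2 to IGF2BP1 ranged from 1.95 in knockout 1 to 8.05 in control 2, and the groups overlapped in it. IGF2BP1 and IGF2BP2 together came to 56.02 and 112 FPKM in control libraries against 56.6 and 101 in knockout libraries, so both knockouts lay between the controls. By reads, which are not scaled to length, knockout 1 held more of IGF2BP1 (129) than of IGF2BP2 (112), and IGF2BP3 had 27 of 599 family reads in control 1 (4.51%, exact 95% interval 2.99 to 6.49%) and 171 of 1047 in control 2 (16.3%, 14.1 to 18.7%). The knockouts had 0 of 241, where 3 reads would be 1.24% and the exact 95% interval reaches 1.52%, and 1 of 542 (0.185%, 0.00467 to 1.02%).

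**Figure D1:**
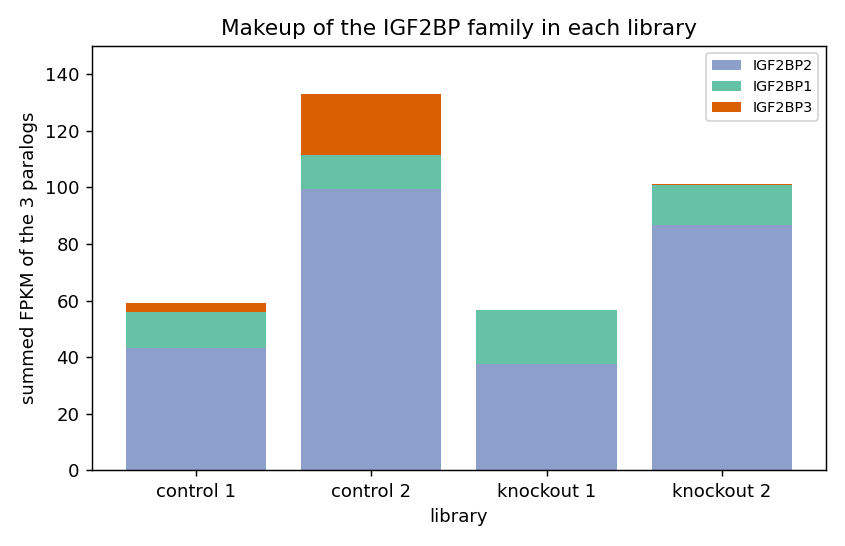
Summed FPKM of IGF2BP1, IGF2BP2 and IGF2BP3 (vertical axis, stacked bars) in each of the 4 libraries (horizontal axis), with no error bars because each bar is 1 library. The total runs from 56.6 in knockout 1 to 133 in control 2, and IGF2BP3 is visible in control libraries and close to absent in knockout libraries.

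The 4 partners of the MYC-stabilising complex were present in every library and their groups overlapped. HNRNPU, a nuclear scaffold protein that binds RNA and chromatin (chromosome 1, 244840638 to 244864560), had 139 and 171 FPKM in control libraries against 114 and 182 in knockout libraries. Knockout 1 was the lowest and knockout 2 the highest of the 4. The log2 fold change was -0.10 (95% interval -1.35 to 1.16, limma adjusted p = 0.995), and its sign turned to 0.05 without control 2 and to 0.24 without knockout 1. COX20 on the opposite strand shares 3502 of the 22512 exon bases of HNRNPU, and its own values were 6.68 and 3.66 against 2.81 and 22.7, low beside HNRNPU in each library.

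YBX1 is a cold-shock domain protein that packages messages and reads 5-methylcytosine (chromosome 1, 42682427 to 42702349). On the log2(FPKM + 0.5) scale it had the narrowest range of all members over the 4 libraries. It had 361 and 378 FPKM in control libraries against 347 and 432 in knockout libraries, with the knockouts on either side of the controls. A log2 fold change of 0.07 was fitted, with a 95% interval from -0.85 to 0.98 (limma adjusted p = 0.995). YBX1 is also the parent of 10 pseudogene entries, of which 3 were above 0 in some library. YBX1P10 had 0 and 17.5 FPKM in control libraries against 3.79 and 63.7 in knockout libraries, and YBX1P2 had 0.463 and 15.5 against 37.0 and 13.7. YBX1P10 is identical to YBX1 at 97.5% of 974 aligned bases and YBX1P2 at 96.7% of 968, and 30.7% of the 50-base stretches of YBX1 transcripts occur in another gene. Reads of YBX1 and these copies are therefore uncertain, and how they were divided was not tested. YBX1 was above each of these copies in every library.

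DHX9, also called RNA helicase A, unwinds structured RNA (chromosome 1, 182839369 to 182887751). It had 47.9 and 64.3 FPKM in control libraries against 47.9 and 66.2 in knockout libraries, nearly the same pair of values in both groups. Its log2 fold change was 0.02 (95% interval -1.77 to 1.81, limma adjusted p = 1.000). SYNCRIP, the heterogeneous nuclear ribonucleoprotein Q that acts in transport and translation of messages (chromosome 6, 85607785 to 85643792), had 36.9 and 52.2 against 89.96 and 43.9. Knockout 1 alone stood out, and knockout 2 lay between the controls. Its log2 fold change of 0.51 (95% interval -1.32 to 2.34, limma adjusted p = 0.974) became -0.00048 without knockout 1, so the difference rests on that library.

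ELAVL1, or HuR, binds AU-rich elements of labile messages and lies on chromosome 19 from 7958579 to 8005659. Its fitted log2 fold change was the largest in size after those of IGF2BP3 and the MATR3 entry found in 1 library. The controls had 30.1 and 19.3 FPKM (392 and 217 reads) and the knockouts 10.4 and 7.10 (51 and 53 reads). Both knockouts lay below both controls, and the knockout mean was 0.355 of the control mean. In rank among the genes above 0 it stood at percentiles 71.3 and 68.3 in control libraries and 42.8 and 42.4 in knockout libraries. The log2 fold change was -1.43 and stayed between -1.75 and -1.12 with any 1 of the 4 libraries left out. It did not pass (limma adjusted p = 0.955). The SE in this fit was set by genes of like level, with no weight on the gene's own spread, and was 1.55. The gene's own 4 values give 0.41. An exact permutation test of 2 against 2 libraries cannot go below a two-sided p of 0.333, whatever the gene's own spread. AC010336.6, which shares 528 of the 6956 exon bases of ELAVL1, was at 0 in every library.

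PABPC1, the cytoplasmic protein that coats the poly(A) tail (chromosome 8), was also lower in both knockouts. It had 486 and 349 FPKM in control libraries against 197 and 335 in knockout libraries. Knockout 2 lay just under control 2, while control 1 stood well above them and knockout 1 well below. The log2 fold change of -0.68 (95% interval -1.64 to 0.28, limma adjusted p = 0.955) was -0.30 without knockout 1 and -1.06 without knockout 2. It was -0.44 without control 1 and -0.92 without control 2. Of its 13 pseudogene entries 1 was above 0, with 2 reads in knockout 1.

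MATR3, which encodes the nuclear matrix protein matrin 3, was listed low in both of its entries. The entry ENSG00000015479 (chromosome 5, 139293648 to 139331677) had 3.42 and 1.68 FPKM in control libraries against 2.36 and 0.993 in knockout libraries, 54, 23, 14 and 9 reads in that order. The entry ENSG00000280987 (139273752 to 139331671) was at 0 in both controls and in knockout 1 and at 5.41 in knockout 2, which is 37 reads in 1 library. The entries lie on the same strand and share exons. Of the exon bases of the first, 42.5% lie in exons of the second. Of the exon bases of the second, 90.7% lie in exons of the first or of SNHG4. SNHG4 itself had 0 and 0.618 FPKM in control libraries against 27.1 and 15.8 in knockout libraries. The part of the SNHG4 overlap in the values of the second entry was not tested. A counter that leaves out reads that fall on 2 genes would not count reads from the shared exons. Whether this was done is not given in the sources used here, and its part in these low values was not tested. How much of the MATR3 mRNA these values cover cannot be told. The fitted log2 fold changes, -0.50 and 1.78, were smaller than their SEs of 2.83 and 2.39.

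**Figure D2:**
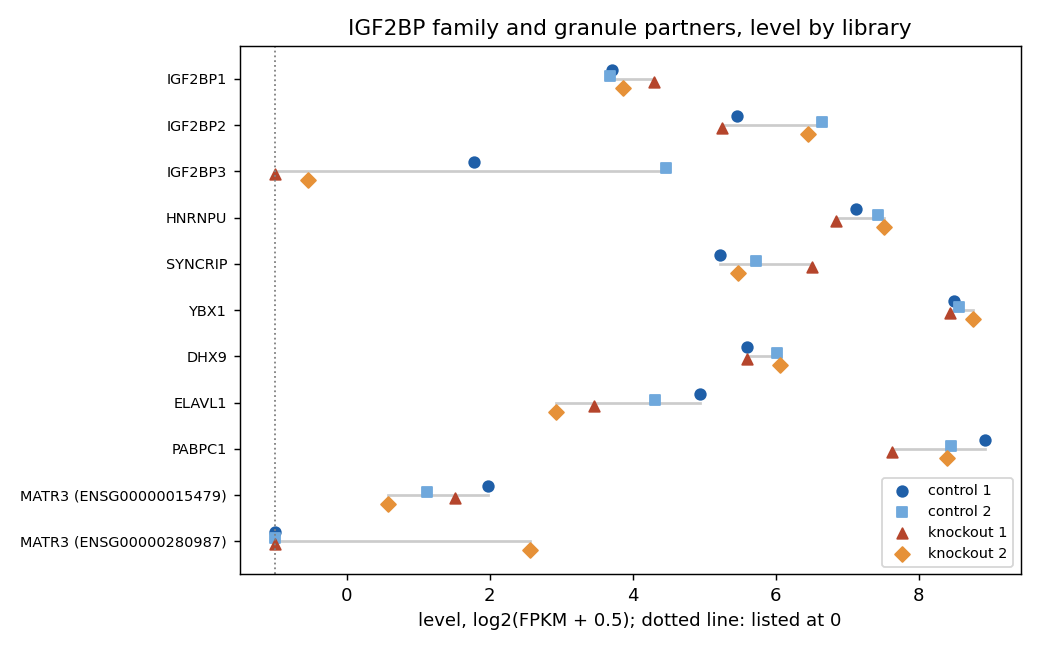
Level of each gene entry (rows) in the 4 libraries on a log2(FPKM + 0.5) axis, with 1 point per library, a grey line over their range and a dotted line where a gene listed at 0 falls. IGF2BP3 and the second MATR3 entry reach the dotted line, ELAVL1 has both knockouts to the left of both controls, and YBX1 spans only 347 to 432 FPKM.

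By mean FPKM over the 4 libraries, the order was YBX1 (379), PABPC1 (342), HNRNPU (152), IGF2BP2 (66.7), DHX9 (56.6), SYNCRIP (55.7), ELAVL1 (16.7), IGF2BP1 (14.6), IGF2BP3 (6.16) and the 2 MATR3 entries (2.11 and 1.35). In FPKM as deposited, ranges over the libraries separated PABPC1 from HNRNPU, HNRNPU from IGF2BP2 and SYNCRIP from ELAVL1. All other neighbours in this order overlapped. The levels depend on the transcript length behind the FPKM, which was that of the longest transcript in GENCODE 29 for every member but HNRNPU. For HNRNPU it was 12852 bases, the length of a transcript with a retained intron, against 6858 for the transcript with the longest coding sequence, and for SYNCRIP 6764 against 3023. With the length of that coding transcript, chosen after the data were seen, HNRNPU stood at 284 and SYNCRIP at 125, which moved SYNCRIP above IGF2BP2 and DHX9. The other positions did not change, apart from IGF2BP2 and DHX9 moving down by 1 each. At that length HNRNPU ran from 214 to 341 FPKM, within the 197 to 486 of PABPC1, so their separation was lost. SYNCRIP ran from 82.5 to 201, which overlapped the 40.3 to 107 of IGF2BP2. In rank, YBX1 was between the 77th and the 131st most abundant entry in all 4 libraries, and PABPC1 between the 70th and the 287th.

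No entry passed over all genes (0 of 11, and 0 at an unadjusted p under 0.05 in the main limma fit, against 448 of 11463 genes tested). All 11 met the minimum mean of 1 FPKM, IGF2BP3 only through the controls and ENSG00000280987 only through knockout 2. Groups did not overlap for 4 entries, IGF2BP1 higher and IGF2BP3, ELAVL1 and PABPC1 lower in the knockouts. Of all genes tested, 12.1% had knockouts wholly higher and 14.4% wholly lower (26.5% in all). The lower count includes the targeted gene, and 2 entries remain beside it.

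**Figure D3:**
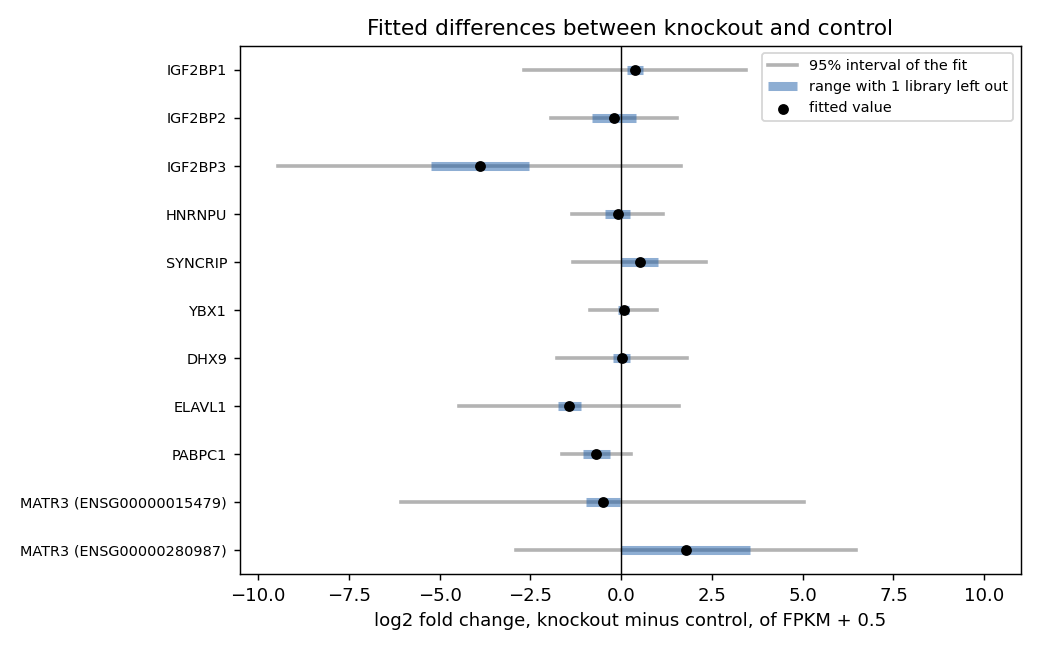
Fitted log2 fold change of FPKM + 0.5, knockout minus control (horizontal axis), for each gene entry (rows), with the 95% interval of the fit as a grey bar and the range over fits with 1 library left out as a blue bar. Every 95% interval spans 0, and the blue bars of IGF2BP1, IGF2BP3, ELAVL1, PABPC1 and the first MATR3 entry stay on 1 side of it.

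Most members differed less between libraries of a group than genes of like level (mean FPKM within 2-fold). The match was by FPKM and not by reads, and at the same FPKM a longer transcript holds more reads. The part of transcript length in this was not tested. On the log2(FPKM + 0.5) scale the controls differed by 0.07 for YBX1, where the median of 204 like genes was 0.47, by 0.03 for IGF2BP1 (median 1.78) and by 0.42 for DHX9 (median 0.89). ELAVL1 differed by 0.63 between the controls and by 0.53 between the knockouts, against medians of 1.64 and 2.06. Of the 11 entries 9 were under that median in control libraries and 8 in knockout libraries, the first count including ENSG00000280987 at 0 in both controls and the second IGF2BP3, whose knockouts hold 0 and 1 read. IGF2BP2 was above it in both groups (1.18 against 0.82 and 1.20 against 1.09) and IGF2BP3 in the controls (2.68 against 2.29). PABPC1 (0.77 against 0.75) and ENSG00000280987 (3.56 against 2.11) were above it in the knockouts. Over all genes tested the median difference was 1.60 in control libraries and 1.89 in knockout libraries.

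**Figure D4:**
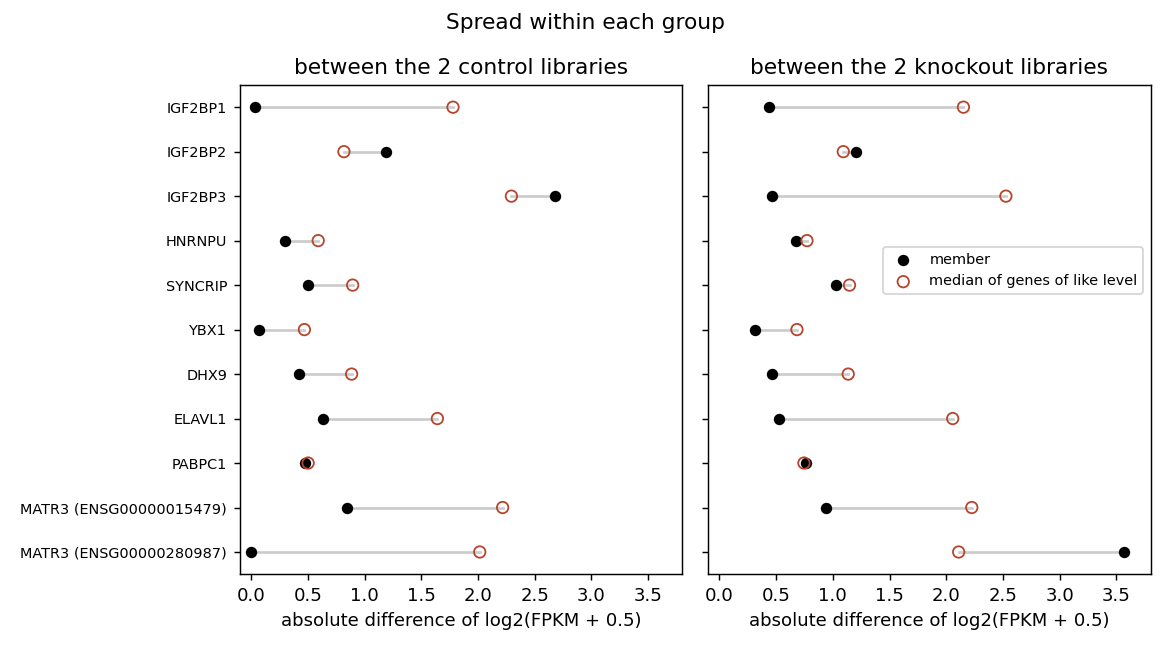
Absolute difference of log2(FPKM + 0.5) between the 2 control libraries (left) and the 2 knockout libraries (right) for each gene entry (black points), beside the median of genes with a mean FPKM within 2-fold of it (red circles). YBX1, DHX9 and ELAVL1 lie to the left of their circles in both panels, and IGF2BP2 lies to the right in both.

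Some members differed in the same direction between library 1 and library 2 of both groups. IGF2BP2, IGF2BP3, HNRNPU, YBX1 and DHX9 were higher in library 2 than in library 1 of both groups, and IGF2BP1, ELAVL1 and ENSG00000015479 were lower, 5 and 3 of the 11 entries (45.5% and 27.3%). The first count includes IGF2BP3, whose knockouts hold 0 and 1 read and so show no direction. Of all genes tested, 31.2% were higher and 12.3% lower in library 2 of both groups. The labels do not say what the numbers stand for. The libraries numbered 1 are those with more genes at 0, and the part of this in the members' values was not tested.

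A further 76 genes of mRNP granules and of the partners' families were held in 4 lists, of which 69 were tested. Of these, 0 were called in limma, against 0.0872% of all genes, and 2 had an unadjusted p under 0.05, against 448 of 11463. Fitted folds were above 0 for 43 and below 0 for 26, with a median of 0.22 against -0.08 over all genes tested, of which 48.2% were above 0. Knockouts stood wholly above controls for 17 and wholly below for 10, beside 12.1% and 14.4% of all genes. Of these 69 genes, 17.4% were at 0 in some library, against 49.4% of all genes tested.

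Among paralogs of the partners and related helicases, 9 of 13 tested had a fold above 0, with a median of 0.66, and in 6 the knockouts were wholly higher (12.1% of all genes tested). HNRNPUL1, a relative of HNRNPU, had 8.72 and 65.4 FPKM in control libraries against 156 and 80.5 in knockout libraries, so that control 1 was lowest by far. Its log2 fold change was 2.19 and 0.77 without control 1. ZNF638, a zinc finger protein related to matrin 3, had 1.97 and 17.0 against 36.5 and 27.4. PABPC1L, a relative of PABPC1, had 90.9 and 77.4 against 16.6 and 78.3, so its lower mean rests on knockout 1, and DHX29, a helicase of translation initiation, had 20.2 and 9.38 against 11.6 and 8.32. The neuronal paralogs of ELAVL1, ELAVL2, ELAVL3 and ELAVL4, were below the minimum level, as were PABPC3, PABPC5, RBM20 and YBX2.

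All 19 stress granule genes were tested, 12 with a fold above 0 (median 0.22, and -0.08 without control 1). Knockouts were wholly higher for 5 and wholly lower for 4, against 12.1% and 14.4% of all genes tested. TIA1, which nucleates stress granules, had 14.5 and 23.2 FPKM in control libraries against 4.24 and 3.12 in knockout libraries. Its fitted log2 fold change was -2.19 (limma adjusted p = 0.955). NUFIP2, a partner of the fragile X protein, had 26.1 and 21.2 against 12.4 and 5.28, with both knockouts lower, as for TIA1. FMR1, the fragile X protein, had 0 and 3.54 against 7.14 and 10.9, with both knockouts higher. Its relative FXR1 had 3.72 and 26.1 against 64.6 and 14.6.

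P-body and decay genes were split 11 above 0 to 9 below, with a median of 0.01 that turned to -0.01 after median ratio scaling, -0.06 after quantile normalisation and -0.45 without control 1. Knockouts were wholly lower for 5 of 20 and wholly higher for 0, against 14.4% and 12.1% of all genes tested. DCP2, the enzyme that removes the cap, had 20.1 and 12.1 FPKM in control libraries against 3.99 and 1.71 in knockout libraries. PAN3, a subunit of a deadenylase, had 43.5 and 3.25 against 0 and 1.14. LSM14A, which takes part in P-body assembly, had 2.83 and 32.8 against 46.2 and 31.8, and DCP1B, a decapping cofactor, was above 0 only in knockout 1, at 8.28.

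RNA transport granule genes had 11 of 17 folds above 0 (median 0.33), with knockouts wholly higher for 6 and wholly lower for 1, against 12.1% and 14.4% of all genes tested. The median was 0.11 without control 1, 0.13 without knockout 1 and 0.58 without control 2. HNRNPD, or AUF1, which like ELAVL1 binds AU-rich elements, had 27.7 and 117 FPKM in control libraries against 222 and 174 in knockout libraries. PURB, which binds purine-rich single strands, had 0.918 and 5.54 against 13.2 and 8.36. PUM2, a Pumilio repressor, had 17.8 and 31.6 against 0 and 18.7, and STAU2, a transport protein that binds double-stranded RNA, had 0 and 9.48 against 0.607 and 1.19. None of the genes named from the lists passed.

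**Figure D5:**
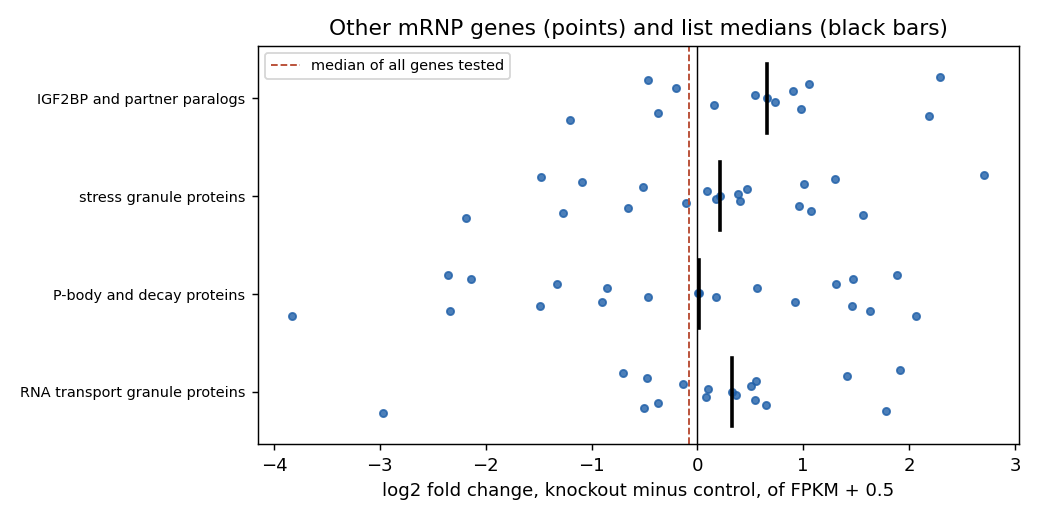
Fitted log2 fold change of FPKM + 0.5, knockout minus control (horizontal axis), of each tested gene in the 4 lists (points, spread vertically for visibility), with list medians as black bars and the median of all genes tested as a dashed line. Points lie on both sides of 0 in every list, with medians from 0.01 for P-body genes to 0.66 for paralogs of the partners.

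Genes that shared the pattern of IGF2BP3 were sought by the distance of their centred log2(FPKM + 0.5) values over the 4 libraries. Of 9623 other protein-coding genes tested, CDPF1 and ZSWIM7 were among the nearest, at distances of 0.48 and 0.53. CDPF1 had 2.47 and 25.4 FPKM in control libraries against 0 and 0.430 in knockout libraries, and ZSWIM7 had 1.61 and 18.4 against 0 in both. With 4 libraries, a profile that is high in control 2 and near 0 in the knockouts is thus found in genes other than the targeted one.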

How the data were processed

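PolyA RNA-seq of 4 T24 libraries (2 control, 2 IGF2BP3 knockout) was used. Per the labels' protocols, libraries followed the Illumina TruSeq method on Trizol-extracted RNA. The authors deposited FPKM per Ensembl gene, counted with HTSeq per the file names, on hg38 per the submitters' processing notes. For the aligner, the annotation release and the strand setting, the sources used here give nothing. GENCODE 29 named 58039 of the 58302 genes.

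FPKM times the longest transcript gave whole multiples of 1 read for 96.4 to 96.5% of genes above 0 (tolerance 0.001 reads). Lengths of 401 more genes, HNRNPU included, were solved from the values. Depths were 2162179, 1870884, 811823 and 1240207 reads (controls, then knockouts). Intervals and floors of 3 reads cover counting error only.

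The 11463 genes that averaged 1 FPKM or more were fitted with limma 3.58.1 in R 4.3.3 (lmFit, eBayes with trend) on log2(FPKM + 0.5), with Benjamini-Hochberg adjustment at 0.05, two-sided. This scale understates changes of low genes. The fit was tested on simulated reads with a replicate spread set in advance, so that test does not gauge the fit at the spread seen here. Alternatives were the pseudocount, filter, 3 scalings, moderation, replicate block, limma-voom on recovered reads and each library left out. Members and lists were chosen with earlier results of these data known. From each list the 2 highest and 2 lowest folds are named, and any call. Sequences came from GENCODE 29 transcripts and were aligned with Biopython 1.88. Files were joined with Python 3.11.15, pandas 2.3.3 and numpy 2.4.6, and figures drawn with matplotlib 3.10.9. A gene of the likeness search is not reported here.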

Additional observations from a re-analysis of the deposited data

How the results depend on the processing

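No member passed the threshold in limma under any of the 10 alternatives that kept the 4 libraries or with any 1 library left out (0 calls), and 106 of 108 fold changes in those 10 kept their sign. The exceptions were HNRNPU at 0.042 with limma-voom and DHX9 at -0.025 after quantile normalisation. The changes of filter, of moderation and to a replicate block cannot alter a fitted fold, so the sign was kept there by construction. At an unadjusted p under 0.05 in limma, the main fit had 0 members. That count was 1 with eBayes that ignores the trend and 1 with limma-voom. With 1 library left out, which leaves a group with 1 library and lends it the spread of the other, the log2 fold change ran from -0.80 to 0.40 for IGF2BP2, -0.43 to 0.24 for HNRNPU, -0.00048 to 1.03 for SYNCRIP, -0.091 to 0.22 for YBX1 and -0.21 to 0.25 for DHX9, and 35 of 44 values kept their sign, 8 turned and 1 (ENSG00000280987 without knockout 2) came to 0. The list genes gave 0 calls throughout. Medians of the lists of paralogs and transport granule genes stayed above 0 (lowest 0.55 and 0.11), that of stress granule genes was -0.08 without control 1, and that of P-body genes ran from -0.47 to 0.34, while the median of all genes tested ran from -0.56 to 0.34 with 1 library left out. The count of 10 genes called was 14 with the replicate number as a block (replicate block), 0 with moderation by eBayes that ignores the trend, and 0 with any library left out, with 415 and 752 to 1025 genes at an unadjusted p under 0.05. Deviations of same-numbered libraries from their group means had a correlation of -0.0040 across 11463 genes, so the numbers do not pair them by that measure. As shares of reads in place of FPKM, IGF2BP1 made up 27.99% of the family in control libraries and 40.05% in knockout libraries, and IGF2BP2 61.6% and 59.9%, since reads weigh the long IGF2BP1 transcript more. The median difference between libraries of a group, controls then knockouts, was 1.90 and 2.28 over all genes with a pseudocount of 0.1, 1.41 and 1.65 with 1, and 1.40 and 1.56 after quantile normalisation. For the members it was 0.48 and 0.67 with the main pseudocount of 0.5, 0.77 in the knockouts with 0.1, and 0.53 and 0.93 after quantile normalisation. These medians of the members and of all genes are not matched on level. At 811823 reads a gene at 0 may still hold up to 3 reads.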
